A study of Canis lupus familiaris with 6 samples.

Results

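Aminoacyl-tRNA synthetases join each amino acid to its own tRNA, the step that supplies charged tRNA to the ribosome. Animal cells keep separate sets for the cytosol and for mitochondria, the mitochondrial enzymes being nuclear-encoded and imported to serve translation of the respiratory chain subunits made inside the organelle. Several cytosolic enzymes sit together in a multisynthetase complex, and others work alone or with elongation factors. Here the synthetase genes were taken by symbol, as the genes whose name is the amino acid letter followed by ARS with or without A, B, 1, 2 or 3, plus EPRS, EARS2, PARS2 and TARSL2. This gave 36 of 29822 annotated genes, 21 for the cytosol and 15 for mitochondria. A name ending in 2 was taken as mitochondrial except for TARSL2, which encodes a cytosolic threonyl-tRNA synthetase. SARS2 and NARS2 were not analysed here.

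The cells were CMM10, a canine malignant melanoma line, incubated under hypoxia (3 libraries) or under normoxia (3 libraries). The labels give no oxygen level, no duration and no other treatment. Polyadenylated RNA was sequenced, with 27272709 to 28804337 gene reads per hypoxia library and 23196647 to 27012866 per normoxia library. Nothing in the labels says that replicates were separate cultures, so p-values measure the spread between these libraries, which may be technical. CA9 and SLC2A1, well-known hypoxia targets, were 13.7-fold and 5.63-fold higher under hypoxia. The 11 melanocyte markers summed to 240.5 to 250.1 CPM (counts scaled to a common library size by TMM, edgeR) under hypoxia against 209.4 to 218.2 CPM under normoxia. Among the 8 tested, 2 rose and 2 fell, where 24.5% of all genes tested were called higher and 24.4% lower. The highest of the 11 was SLC45A2, at 91.7 CPM under hypoxia against 65.9 CPM under normoxia. SOX10, MITF and DCT were at 28.9 to 65.6 CPM under hypoxia and 30.6 to 49.9 CPM under normoxia. MLANA was at 0.556 CPM under hypoxia and 0.751 CPM under normoxia, and TYR, TYRP1 and TRPM1 lay at or below 0.34 CPM in both groups. Markers of other cell types were present too. The 4 measured epithelial markers (of 6 listed) summed to 4409 to 5081 CPM under hypoxia against 1172 to 1214 CPM under normoxia, most of it KRT14 (4456 CPM under hypoxia against 873.5 CPM under normoxia), with CDH1 also higher (258.5 CPM under hypoxia against 187.1 CPM under normoxia), EPCAM lower (112.0 CPM under hypoxia against 124.2 CPM under normoxia) and KRT18 at 0.952 CPM under hypoxia and 1.62 CPM under normoxia. The 5 fibroblast markers summed to 5568 to 5746 CPM under hypoxia against 4217 to 4500 CPM under normoxia, nearly all COL1A2, with LUM at 0.17 CPM in both groups. The 4 leukocyte markers summed to 379.6 to 412.9 CPM under hypoxia against 379.3 to 415.3 CPM under normoxia, nearly all CD79A, with CD3E and PTPRC near 0, and the 3 endothelial markers summed to 6.49 to 7.09 CPM under hypoxia against 5.62 to 6.83 CPM under normoxia. The part of these shifts in the synthetase results was not tested, and in bulk RNA a change in the mix of cells and a change of RNA per cell cannot be told apart.

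Under hypoxia the cytosolic synthetase genes moved in both directions, and every called gene that was classed by name as mitochondrial fell. GARS, which rose, and KARS, which fell, supply both compartments in human cells and were counted as cytosolic only. Among the 21 cytosolic genes, 4 rose (WARS, CARS, GARS and SARS), 12 fell and 5 gave no call. Among the 15 mitochondrial genes, 0 rose, 9 fell and 6 gave no call. All 36 genes passed the filter on low counts. A call is a p below 0.05 in the quasi-likelihood test of edgeR, adjusted by the Benjamini-Hochberg method over the 15397 genes tested. In that test, 24.5% of all genes were called higher and 24.4% lower (49.0% in all), or 27.1% higher and 32.4% lower (59.5% in all) among the 10936 genes with at least the mean CPM of PARS2 (6.195), the lowest member. The synthetases stood at 11.1% higher and 58.3% lower. Their changes were small: 15 called genes moved by over 1.2-fold, 2 by over 1.5-fold and 0 by over 2-fold. Those over 1.5-fold were VARS and MARS2, but MARS2 stayed under 1.5-fold from unique reads (log2 fold change -0.54) and from exon reads (-0.53). The median log2 fold change of hypoxia over normoxia was -0.14 for the cytosolic genes and -0.25 for the mitochondrial genes, against 0.00 for all genes tested.

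**Figure D1:**
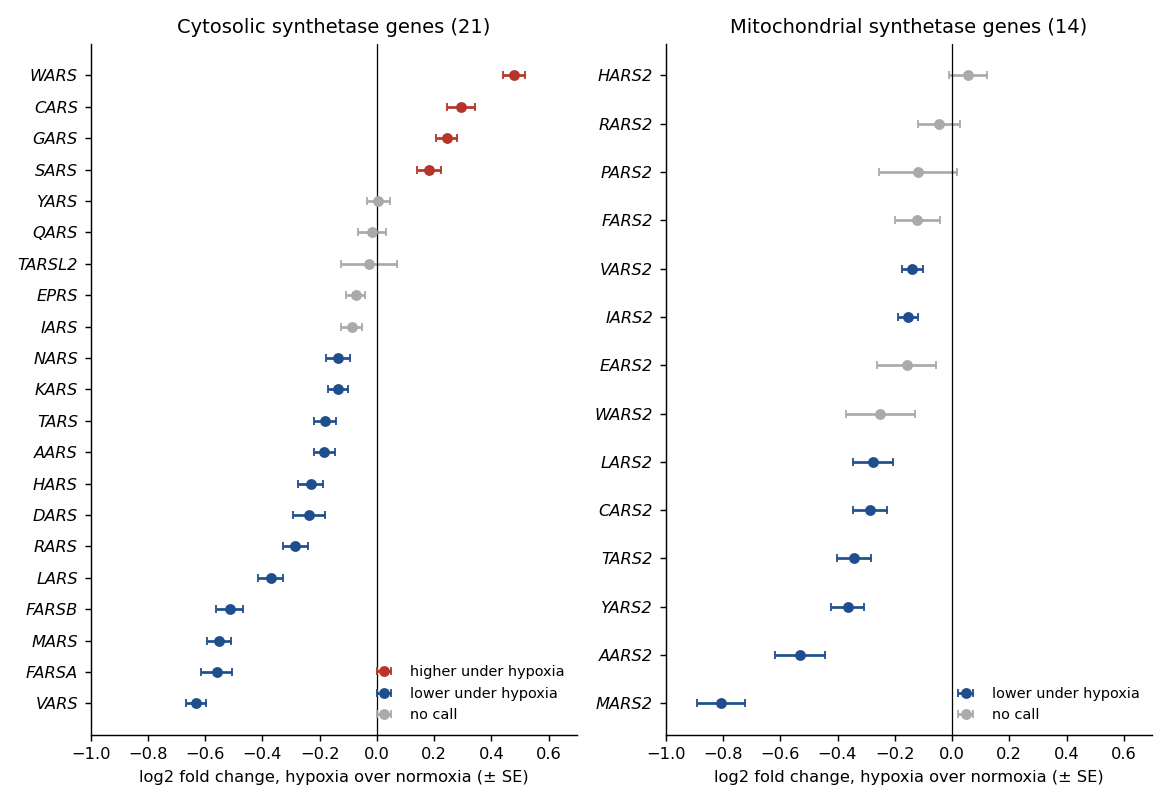
Log2 fold change of hypoxia over normoxia (x axis, points, with SE as bars) for the 21 cytosolic genes (left) and 14 mitochondrial genes (right), coloured by the call. Cytosolic genes run from -0.63 (VARS) to 0.48 (WARS), and 13 of the 14 mitochondrial genes drawn lie below 0.

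The tryptophanyl-tRNA synthetase gene WARS, which lies on chromosome 8 (68610090 to 68643467, CanFam3.1, minus strand), had the largest rise. Its level was 330.9, 317.1 and 344.3 CPM in the hypoxia libraries, against 249.7, 232.2 and 229.9 CPM in the normoxia libraries. The lowest hypoxia library thus stood well above the highest normoxia library, and the log2 fold change was 0.48 ± 0.038 (SE, adjusted p = 2.41e-12, edgeR). WARS is also known as an interferon-inducible gene whose product can act outside the cell. Its reads lay in introns to 39.4% under hypoxia and 38.8% under normoxia, the highest share of any cytosolic member.

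CARS, for cysteine (chromosome 18, 46959743 to 47007460, minus strand), reached 78.0, 73.7 and 78.2 CPM under hypoxia against 63.3, 63.1 and 61.1 CPM under normoxia. The groups did not overlap (0.29 ± 0.048, adjusted p = 4.87e-06, edgeR). GARS encodes glycyl-tRNA synthetase, and in human cells this gene supplies both the cytosolic and the mitochondrial enzyme. It lies on chromosome 14 (43308152 to 43396487, plus strand) and stood at 330.2, 321.1 and 338.4 CPM under hypoxia against 285.8, 285.5 and 264.2 CPM under normoxia, again without overlap (0.24 ± 0.036, adjusted p = 1.18e-06, edgeR). Its model shares 28148 bases with CRHR2 on the opposite strand, which was near 0 (0.109 CPM under hypoxia against 0.175 CPM under normoxia). The seryl-tRNA synthetase SARS, which also charges the selenocysteine tRNA with serine, had the smallest rise among the called genes (0.18 ± 0.043, adjusted p = 8.30e-04, edgeR). Its libraries read 176.7, 168.0 and 181.0 CPM under hypoxia against 159.5, 161.0 and 142.7 CPM under normoxia. Here the lowest hypoxia library, replicate 2 (168.0 CPM), lay above the highest normoxia library, also replicate 2 (161.0 CPM).

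At the other end stood VARS, the valyl-tRNA synthetase, which binds the elongation factor complex that delivers charged tRNA. It lies on chromosome 12 (1254952 to 1269208, minus strand). VARS measured 196.4, 188.1 and 185.5 CPM under hypoxia against 292.7, 301.3 and 290.0 CPM under normoxia, a fall of 0.63 on the log2 scale (SE 0.035, adjusted p = 4.28e-16, edgeR). The gap between the groups was many times the spread within either.

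Phenylalanyl-tRNA synthetase is built of a catalytic alpha subunit, FARSA, and a beta subunit, FARSB, and the genes of both subunits fell. FARSA (chromosome 20, 49258845 to 49267198, plus strand) measured 40.5, 42.4 and 41.4 CPM under hypoxia against 61.9, 63.1 and 58.0 CPM under normoxia (-0.56 ± 0.054, adjusted p = 2.54e-10, edgeR). FARSB (chromosome 37, 28647115 to 28716198, minus strand) measured 60.9, 62.9 and 59.3 CPM against 85.4, 85.9 and 90.2 CPM (-0.51 ± 0.047, adjusted p = 7.15e-11, edgeR). Neither gene had overlapping groups.

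MARS, the methionyl-tRNA synthetase that charges both initiator and elongator tRNA, fell to 89.0, 88.8 and 93.8 CPM under hypoxia, against 136.4, 133.3 and 128.1 CPM under normoxia (-0.55 ± 0.042, adjusted p = 9.25e-13, edgeR). It lies on chromosome 10 (1588875 to 1606750, plus strand), and its model shares 58 bases with that of DDIT3 on the opposite strand. DDIT3, a stress-induced transcription factor, moved the other way, at 41.1 ± 4.60 CPM under hypoxia against 33.8 ± 1.47 CPM under normoxia (SD, n = 3 each, 0.28 ± 0.070 SE, adjusted p = 0.00133, edgeR). The kit does not mark strand, so reads of the shared stretch cannot be assigned to either gene.

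The other cytosolic falls were smaller, from -0.37 to -0.14. LARS, for leucine, whose product also serves as a leucine sensor for mTORC1 in human cells, fell by 0.37 (102.8 ± 0.585 CPM under hypoxia against 132.9 ± 7.07 CPM under normoxia, SD, n = 3 each). RARS fell by 0.29, DARS by 0.24, HARS by 0.23, AARS by 0.18 and TARS by 0.18. AARS shares 28483 bases with DDX19A on the opposite strand, which fell too (-0.22), and 93.3% of AARS reads were unique, from which its change was -0.20. KARS, for lysine, which like GARS supplies both compartments in human cells, fell by 0.14, and so did NARS, for asparagine. NARS was the one call among the synthetases that leaving out a single library undid, at -0.10 (adjusted p = 0.0720, edgeR) without normoxia replicate 1.

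No call was made for YARS (0.00 ± 0.039), QARS (-0.02 ± 0.048), TARSL2 (-0.03 ± 0.098), EPRS (-0.07 ± 0.034) and IARS (-0.09 ± 0.038). YARS stood at 128.6, 128.9 and 136.0 CPM under hypoxia against 132.4, 131.1 and 128.6 CPM under normoxia, so its groups overlapped. EPRS, the fused glutamyl- and prolyl-tRNA synthetase, was the exception among these in that its groups did not overlap, at 338.7, 326.8 and 340.9 CPM against 356.1, 348.5 and 355.0 CPM (adjusted p = 0.0662, edgeR). IARS, for isoleucine, lay at the threshold (adjusted p = 0.0533, edgeR) and crossed it in several other fits, among them those from unique reads (-0.09, adjusted p = 0.0455, edgeR) and with the replicate block (-0.09, adjusted p = 0.0300, edgeR). Over all members, 4 had hypoxia values wholly above normoxia values, 23 wholly below and 9 overlapping, where the same shares over all genes tested were 27.8% above and 27.5% below (55.3% in all).

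**Figure D2:**
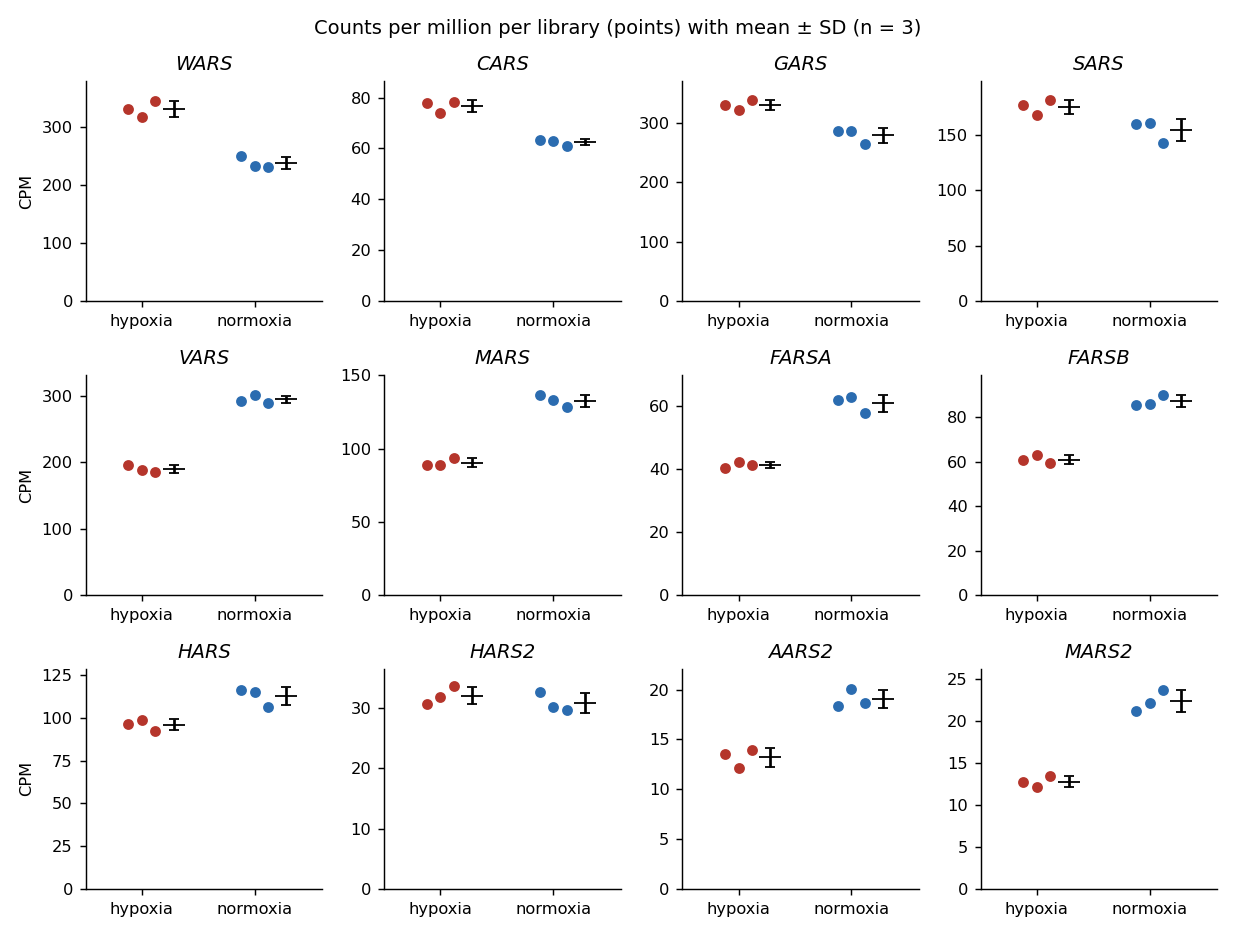
CPM (y axis, from 0) in each hypoxia library (red, left) and each normoxia library (blue, right) for 12 synthetase genes, with mean ± SD beside the points (n = 3). WARS, CARS, GARS and SARS lie higher under hypoxia, HARS2 overlaps, and the other 7 lie lower.

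By known assembly, the 8 cytosolic synthetases of the mammalian multisynthetase complex (EPRS, IARS, LARS, MARS, QARS, RARS, KARS and DARS) gave 0 rises and 5 falls, with a median of -0.19 and a range from -0.55 to -0.02. The 13 cytosolic genes outside the complex gave 4 rises and 7 falls, with a median of -0.14 and a wider range, from -0.63 to 0.48. All 4 rises were therefore outside the complex, but so was the largest fall, VARS. Over all genes of at least the CPM of the lowest member, 27.1% were called higher and 32.4% lower. The difference between the sets was not tested. AIMP1, a scaffold protein of the complex, fell by 0.27 (48.6 ± 2.78 CPM under hypoxia against 58.5 ± 3.89 CPM under normoxia, SD, n = 3 each, adjusted p = 2.38e-04, edgeR). The evolutionary classes of the catalytic fold did not separate the directions: class I held 2 rises and 10 falls among 18 genes, and class II held 2 rises and 11 falls among 17 genes, with EPRS carrying both folds.

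Among the mitochondrial enzymes, MARS2, for methionine, had the largest fall from gene reads. It measured 12.8, 12.1 and 13.4 CPM under hypoxia against 21.1, 22.1 and 23.7 CPM under normoxia (-0.81 ± 0.085, adjusted p = 1.40e-09, edgeR). Part of that value came from reads without a unique place. Only 62.7% of MARS2 reads were unique, and of its 1039 intron reads over the 6 libraries 0 were unique. From unique reads the change was -0.54 (adjusted p = 2.19e-05, edgeR), and from exon reads -0.53 (adjusted p = 4.22e-05, edgeR), so the fall was smaller and still called. The gene (chromosome 37, 7149418 to 7152418) lies whole inside RFTN2 on the opposite strand, and RFTN2 rose (0.50), to 21.4 CPM under hypoxia against 15.2 CPM under normoxia.

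AARS2, for alanine (chromosome 12, 12704983 to 12718821, minus strand), stood at 13.5, 12.1 and 13.9 CPM under hypoxia against 18.4, 20.1 and 18.7 CPM under normoxia. The groups were well apart (-0.53 ± 0.088, adjusted p = 6.88e-06, edgeR), and 99.96% of the reads were unique. YARS2, for tyrosine (chromosome 27, 16139499 to 16161147, plus strand), reached 37.2, 35.6 and 34.3 CPM against 47.0, 44.2 and 46.8 CPM (-0.36 ± 0.059, adjusted p = 4.17e-06, edgeR). TARS2, for threonine (chromosome 17, 59681936 to 59695746, plus strand), reached 45.9, 44.7 and 44.6 CPM against 56.4, 62.5 and 52.6 CPM (-0.34 ± 0.059, adjusted p = 1.02e-05, edgeR). In each of these the highest hypoxia library lay below the lowest normoxia library.

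CARS2 (-0.29), LARS2 (-0.28), IARS2 (-0.15) and VARS2 (-0.14) also fell. LARS2, for leucine, is a gene whose human variants cause inherited disease of hearing and ovary. WARS2 missed the threshold (-0.25 ± 0.12, adjusted p = 0.0846, edgeR) and passed it without hypoxia replicate 2 (-0.34, adjusted p = 0.0425, edgeR). HARS2 (0.06), RARS2 (-0.05), PARS2 (-0.12), FARS2 (-0.12) and EARS2 (-0.16) gave no call. EARS2, WARS2 and PARS2 had 149 to 380 reads per library, and the SEs of their log2 fold changes were 0.10, 0.12 and 0.14, against 0.059 for YARS2. A change of the size of that in VARS2 could be missed with such SEs. HARS2, RARS2 and FARS2 had SEs of 0.066, 0.073 and 0.079. The smallest detectable change was not computed, so no call is not evidence of no change in any of these genes.

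The level of each gene was compared between genes in TPM, the authors' transcript level per exon length, scaled to the same total in each library. The cytosolic genes summed to 2217 ± 49.9 TPM under hypoxia against 2405 ± 30.5 TPM under normoxia (SD, n = 3 each), and the mitochondrial genes to 401.2 ± 5.64 against 474.7 ± 6.44 TPM. Neither class had overlapping libraries, with the highest hypoxia library at 2273 TPM against the lowest normoxia library at 2383 TPM for the cytosolic sum, and 405.9 against 469.3 TPM for the mitochondrial sum. TPM was not TMM-scaled. Under scaling by library size alone, the median log2 fold change over all genes shifted by -0.07. The part of such a shift in these sums was not tested. KARS was the most abundant member over all libraries (214.1 ± 8.93 TPM under hypoxia against 239.1 ± 1.34 TPM under normoxia). WARS, in contrast, stood at 255.9 ± 8.37 TPM under hypoxia, above KARS, and at 188.5 ± 8.04 TPM under normoxia, below it. TARSL2 was the least abundant cytosolic gene (6.67 ± 0.572 against 6.71 ± 0.638 TPM), at the level of the rare mitochondrial ones. Mitochondrial genes ranged in their mean over all libraries from 7.003 TPM for PARS2 to 122.8 TPM for IARS2 (114.7 ± 2.44 under hypoxia against 130.9 ± 4.26 TPM under normoxia).

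Most amino acids have one gene for each compartment, which allowed the partners to be set side by side within each library in 16 comparisons. FARS2 was set against both FARSA and FARSB, and EPRS against both EARS2 and PARS2, so not all comparisons were of separate genes. In 15 of them the cytosolic gene had the higher TPM in all 6 libraries. The exception was isoleucine, where IARS was at 0.841 times the TPM of IARS2 under hypoxia and 0.786 times under normoxia. The log2 ratio of cytosolic to mitochondrial TPM (pseudocount of 1) did not overlap between the groups in 10 of 16 comparisons, 5 higher and 5 lower. Both comparisons with FARS2 were among the lower ones. The levels of single genes did not overlap in 55.3% of all genes tested, and the same share over ratios of other gene pairs was not computed. A two-sided exact permutation test of 3 against 3 libraries cannot give a p under 0.1, which all 10 reached, and after Benjamini-Hochberg adjustment over the 16 comparisons this became 0.16, so no difference passed a threshold of 0.05.

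The ratio for tryptophan differed most. WARS over WARS2 was 5.22, 4.89 and 5.30 on the log2 scale in the hypoxia libraries against 4.37, 4.30 and 4.27 in the normoxia libraries, as WARS rose and the WARS2 mean was lower. For cysteine, the log2 ratio of CARS to CARS2 was 0.86, 0.61 and 0.79 under hypoxia, against 0.026, 0.26 and 0.13 under normoxia, where the partners were close to level. The mean difference was 0.62, and here both genes were called, in opposite directions. The difference ran the other way for valine, where VARS over VARS2 was 0.40, 0.32 and 0.30 under hypoxia against 0.81, 0.83 and 0.83 under normoxia, and for phenylalanine, where FARSA over FARS2 differed by -0.51. For methionine, where both genes fell, the ratio of MARS to MARS2 differed by -0.04 and its groups overlapped.

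**Figure D3:**
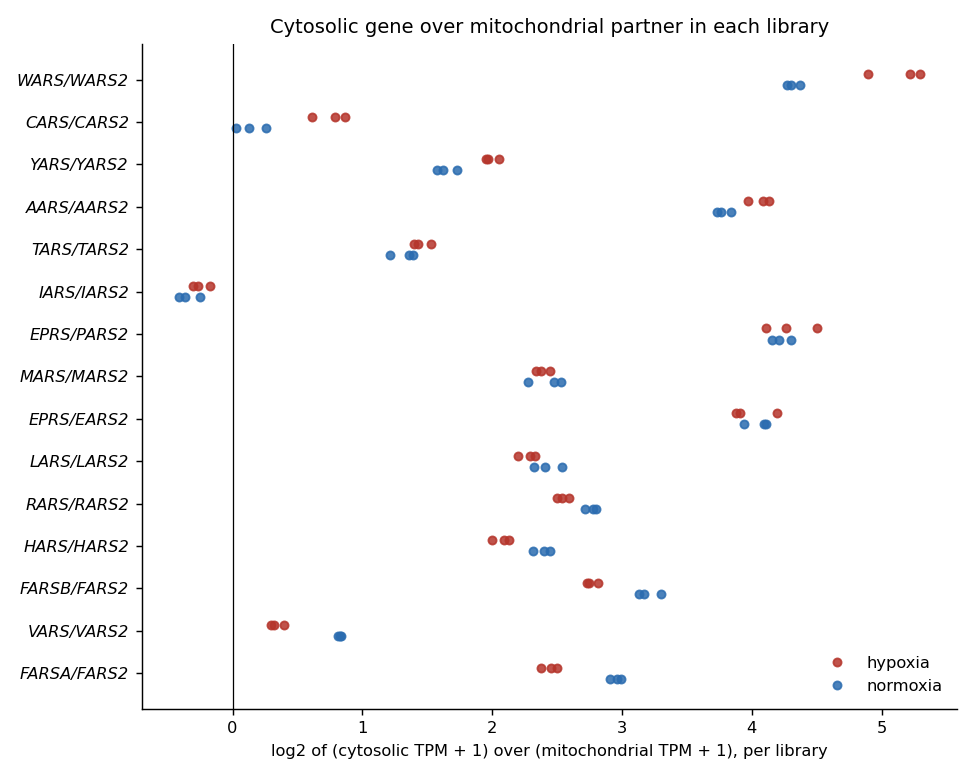
Log2 ratio of cytosolic to mitochondrial TPM (pseudocount 1, x axis) in each hypoxia (red) and normoxia (blue) library for 15 of the partner comparisons, ordered from the largest increase under hypoxia (top) to the largest decrease. WARS/WARS2 and CARS/CARS2 lie further right under hypoxia, VARS/VARS2 and FARSA/FARS2 further left.

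HARS and HARS2, for histidine, are neighbours that point away from each other on chromosome 2, HARS from 35828260 to 35843583 on the minus strand and HARS2 from 35843706 to 35850760 on the plus strand, with 122 bases between their annotated starts. HARS fell to 96.6, 98.7 and 92.6 CPM under hypoxia, against 116.2, 115.2 and 106.5 CPM under normoxia (adjusted p = 4.62e-05, edgeR). HARS2, across the same short stretch, stood at 30.7, 31.9 and 33.6 CPM against 32.7, 30.2 and 29.7 CPM (0.06 ± 0.066, adjusted p = 0.521, edgeR). The groups overlapped in HARS2 and not in HARS, and the log2 ratio of HARS to HARS2 was 2.09, 2.13 and 2.00 under hypoxia against 2.44, 2.40 and 2.32 under normoxia (exact permutation p = 0.1, two-sided, the smallest possible, adjusted 0.16).

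Other members also had a divergent neighbour starting within 1000 bases. WDR25, starting 912 bases from WARS, rose as WARS did, but by less (0.26 ± 0.070, adjusted p = 0.00257, edgeR). UBFD1, 306 bases from EARS2, fell by 0.12 (adjusted p = 0.0398, edgeR). It gave no call from exon reads (-0.10, adjusted p = 0.222, edgeR) or from intron reads (-0.14, adjusted p = 0.125, edgeR). TERF2IP, a telomere protein gene 193 bases from KARS, had a value of 0.12 ± 0.060 with no call while KARS fell, and SPATS1, 20 bases from AARS2, was barely expressed (1.42 CPM under hypoxia against 1.46 CPM under normoxia).

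Exon and intron reads were compared because intron reads can come from unspliced RNA, but their source was not tested. Of the 1039 intron reads of MARS2, 0 were unique. PARS2, with 1407 exon bases in a model from 54397126 to 54398729, had 33.0% of its reads in introns under hypoxia. Changes of intron reads are therefore not read here as changes of unspliced RNA. The share of a member's reads in introns differed widely, from 1.27% in KARS to 57.0% in WARS2 under hypoxia, with a median of 11.03% for cytosolic and 33.0% for mitochondrial genes (11.9% and 32.7% under normoxia). From exon reads only, 4 cytosolic genes were called higher and 12 lower, and 9 mitochondrial genes lower, the same genes as from all gene reads (24.4% of 13458 genes tested were called higher and 23.8% lower). From intron reads only, the same 4 cytosolic genes were called higher, 7 were called lower and 4 mitochondrial genes lower. Of the 13858 genes tested from intron reads, 17.4% were called higher and 16.2% lower. The 7 cytosolic falls included IARS (-0.18, adjusted p = 0.0266, edgeR), which gave no call from all gene reads. The 4 mitochondrial falls included MARS2, which had no unique intron reads.

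The intron reads of WARS rose by as much as its exon reads (0.50 against 0.47), and those of SARS (0.32 against 0.18), CARS (0.34 against 0.30) and GARS (0.28 against 0.25) also rose. Among the falls, VARS (-0.83 in introns against -0.61 in exons) and FARSB (-0.72 against -0.48) had larger differences in introns, and LARS was close (-0.45 against -0.35). In RARS (-0.15 against -0.29, intron adjusted p = 0.432, edgeR) and in AARS, TARS, HARS, KARS and NARS the intron reads gave no call. Of the 4521 intron reads of AARS, only 2241 were unique. The difference between exon and intron changes was not tested.

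**Figure D4:**
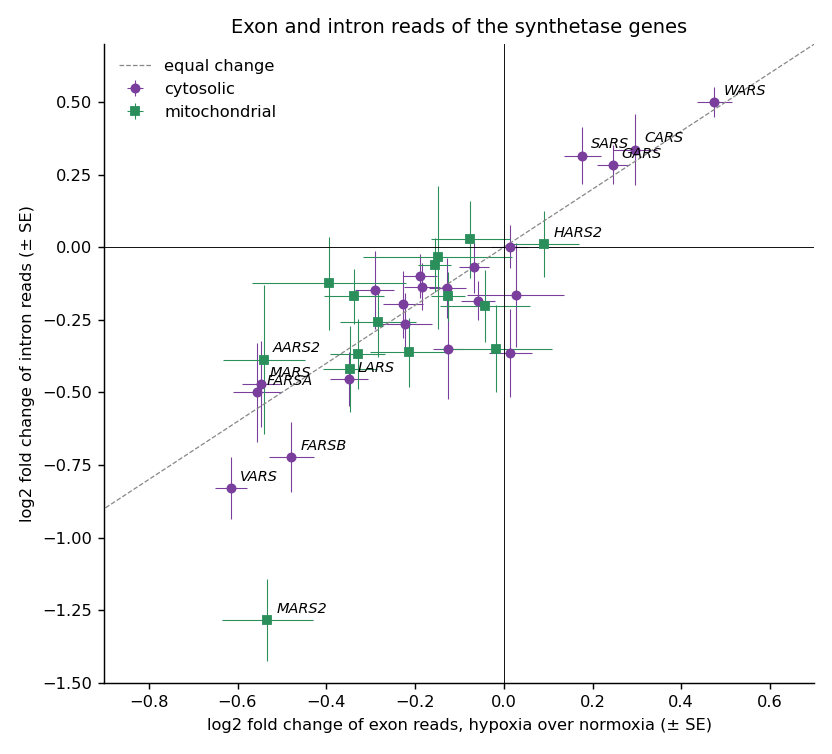
Log2 fold change of hypoxia over normoxia from exon reads (x axis) and from intron reads (y axis), each with SE, for the cytosolic (circles) and mitochondrial (squares) genes; the dashed line marks equal change. WARS, CARS, GARS and SARS lie in the upper right, and MARS2 lies far below the line at -0.53 and -1.28, with no unique intron reads.

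The steps around tRNA charging were described from lists chosen by function. Among genes of at least the CPM of the lowest synthetase, 27.1% were called higher and 32.4% lower. Enzymes of tRNA processing and export fell in 11 of 17 genes tested and rose in 0, with a median of -0.31. POP1, a subunit of RNase P, which trims the front end of tRNA precursors, fell to 39.3 ± 1.94 CPM under hypoxia, against 72.5 ± 2.05 CPM under normoxia (SD, n = 3 each, -0.89 ± 0.054 SE, adjusted p = 3.39e-15, edgeR). CLP1, an RNA kinase of the tRNA splicing complex, fell by 0.58. Of 18 genes for RNA polymerase III, which transcribes tRNA genes, and its factors, 8 fell and 2 rose (median -0.10), where 24.4% of all genes tested were called lower and 24.5% higher. The smallest of the falls, GTF3C4 (-0.11), gave no call in exon reads (adjusted p = 0.0681, edgeR). POLR3E fell by 0.69, and the 2 rises were BRF1 (0.25) and POLR3K (0.13, adjusted p = 0.0488, edgeR). The CPM of POLR3K overlapped between the groups, and its exon reads gave no call and the opposite sign (-0.046, adjusted p = 0.595, edgeR).

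Mitochondrial translation elongation fell in 3 of 4 genes, where 32.4% of genes of at least the CPM of the lowest synthetase were called lower. TUFM, which carries charged tRNA to the mitochondrial ribosome, stood at 81.1, 81.0 and 81.4 CPM under hypoxia against 125.3, 127.3 and 113.9 CPM under normoxia (-0.59 ± 0.045, adjusted p = 8.27e-13, edgeR), and GFM1 fell by 0.25. The cytosolic elongation list gave 1 fall, EEF1D (-0.18), in 4 genes tested, while EEF1A1 (-0.03), the cytosolic counterpart of TUFM, gave no call. QRSL1, a subunit of the amidotransferase that makes mitochondrial glutaminyl-tRNA in place of a synthetase, fell by 0.41. GATB, another subunit of that amidotransferase, gave no call (0.04, adjusted p = 0.825, edgeR). MTFMT, which formylates the initiator methionyl-tRNA made by MARS2, fell by 0.21. MTFMT lost its call from exon reads (-0.14, adjusted p = 0.199, edgeR) and without normoxia replicate 2 (-0.15, adjusted p = 0.104, edgeR).

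Of 8 genes for mitochondrial tRNA processing and modification, 3 fell and 1 rose. Over genes of at least the CPM of the lowest synthetase, the shares called were 32.4% lower and 27.1% higher. The rise was TRMU, which thiolates the wobble base of several mitochondrial tRNAs (26.3 ± 1.67 CPM under hypoxia against 17.3 ± 0.816 CPM under normoxia, SD, n = 3 each, 0.60 ± 0.077 SE, adjusted p = 6.57e-08, edgeR), and MTO1, which modifies the same base, fell by 0.35. The smallest fall of this list, PUS1 (-0.14), gave no call in exon reads (adjusted p = 0.178, edgeR). In the selenocysteine list 3 of 5 genes fell, led by SECISBP2 (-0.34) and SEPHS1 (-0.27), and 0 rose, while SARS, which begins that route, rose. The trans-editing list had a single tested gene, DTD2 (-0.11), with no call.

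**Figure D5:**
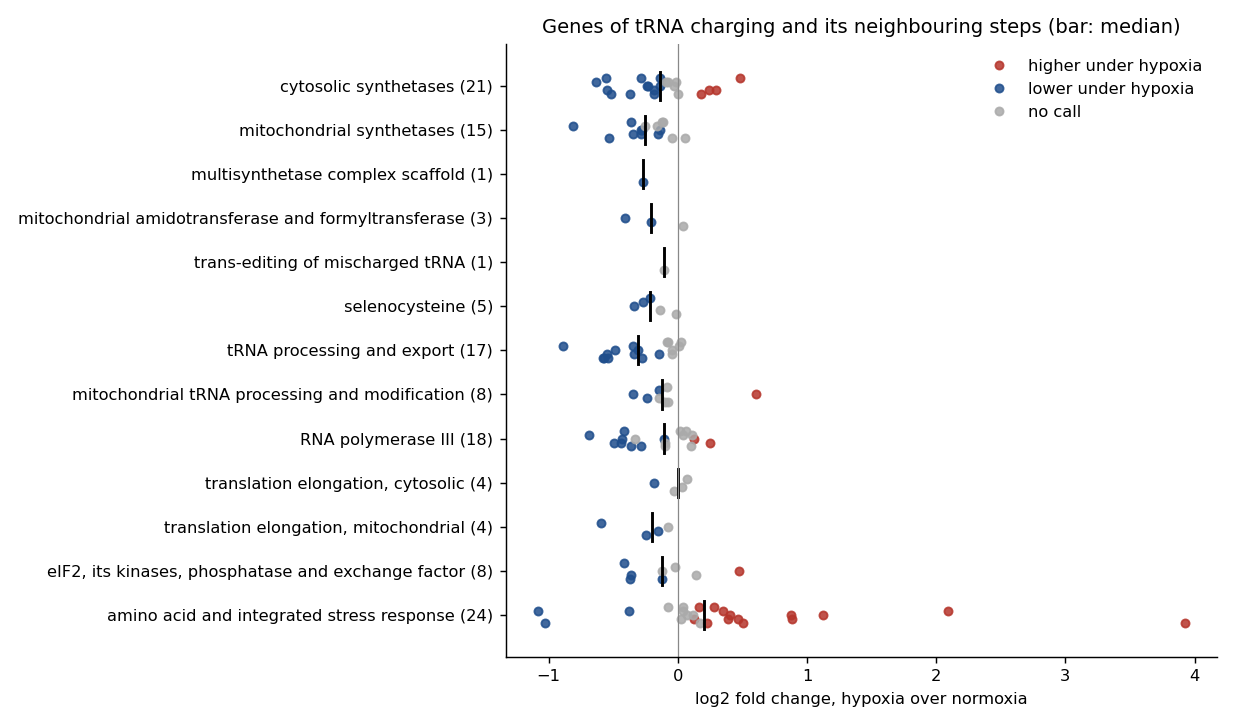
Log2 fold change of hypoxia over normoxia (x axis) of each gene in the synthetase classes and in lists of neighbouring steps, with the number of genes tested in brackets, points coloured by the call and a black bar at the median. The stress response list has the highest median (0.20), and tRNA processing and export the lowest (-0.31).

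The amino acid and integrated stress response is the route by which uncharged tRNA and other stresses slow translation and raise ATF4, a transcription factor known to act on several cytosolic synthetase genes. Of its 24 genes tested, 14 rose, 3 fell and 7 gave no call (median 0.20). Over genes of at least the CPM of the lowest synthetase, 27.1% were called higher and 32.4% lower. Those without a call were CEBPB (0.17), TRIB3 (0.12), SLC38A2 (0.07), PCK2 (0.04), ATF5 (0.04), MTHFD2 (0.03) and PSAT1 (-0.08). The smallest of the rises, SLC7A5 (0.13), gave no call in exon reads (adjusted p = 0.0623, edgeR). ATF4 itself stood at 301.1, 289.0 and 286.1 CPM under hypoxia against 228.2, 235.0 and 225.3 CPM under normoxia (0.35 ± 0.035, adjusted p = 5.50e-10, edgeR). ASNS, asparagine synthetase and a classic ATF4 target, rose to 90.6, 85.1 and 93.8 CPM, against 63.5, 67.6 and 64.0 CPM under normoxia (0.47 ± 0.048, adjusted p = 1.06e-09, edgeR). NARS, the synthetase that uses asparagine, fell.

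The largest changes in this list were those of DDIT4 (3.93) and VLDLR (2.09), and the 3 falls were CTH (-1.08), SLC7A11 (-1.03) and SLC3A2 (-0.38). In the list around the initiation factor eIF2, which holds its kinases and phosphatase subunits, its alpha subunit EIF2S1 and the exchange factor subunit EIF2B5, 4 of 8 genes fell and 1 rose. For scale, 32.4% of genes of at least the CPM of the lowest synthetase were called lower and 27.1% higher. The falls in this eIF2 list were those of the kinases EIF2AK1 (-0.12) and EIF2AK2 (-0.36), of EIF2S1 (-0.37) and of EIF2B5 (-0.42). The rise was EIF2AK3, the kinase PERK of the endoplasmic reticulum (0.48 ± 0.061, adjusted p = 8.38e-08, edgeR), whereas EIF2AK4, the kinase GCN2 that senses uncharged tRNA, gave no call (-0.02).

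When libraries were scaled by their size alone, the share of higher calls among all calls was 38.8% in place of 50.1%, and the synthetase counts became 4 higher and 25 lower in place of 4 and 21. Annotated models of 14 of the 36 members overlap another gene on either strand, among them 10 of the 25 called members, and reads of these overlaps cannot be assigned to one gene. The 22 members without such an overlap gave 3 rises and 12 falls (median -0.17), and the 14 with one gave 1 rise and 9 falls (median -0.17). Over genes of at least the CPM of the lowest member, 27.1% were called higher and 32.4% lower.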

How the data were processed

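Polyadenylated RNA of 3 hypoxia and 3 normoxia libraries of CMM10 cells was sequenced as paired-end reads from a kit that, per the labels' protocols, does not mark strand. The authors deposited, per the file headers, counts of gene, exon, intron and unique reads and TPM for 29822 genes per library. The genome build was CanFam3.1, per the submitters' processing notes, and for the aligner and counter no name is given in the sources used here. Deposited total gene read counts were tested with edgeR 4.0.16 (R 4.3.3; quasi-likelihood test, robust, TMM scaling, filterByExpr, Benjamini-Hochberg over 15397 genes, threshold 0.05), on all 6 libraries and without a covariate. CPM used TMM-scaled library sizes, and SEs are the log2 fold change over the root of F. The fit was tested on simulated data. Partner ratios used the deposited TPM, taken by the authors from exon reads per exon length, with a pseudocount of 1. Alternatives were RLE and library-size scaling, other count filters, DESeq2 1.42.0, exon, intron or unique reads, a replicate block, another pseudocount and leaving out each library. Replicates of a group differed by more than counting noise (4.27 to 13.8 for chi-square over its degrees of freedom), and the common biological coefficient of variation was 4.76%. Figures were drawn with matplotlib 3.10.9.

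The members and lists were chosen with earlier results of these data known. Genes described in full were the 4 largest called changes of each class, the members called against their class, the highest and lowest TPM of each class, the partners, and the 2 largest called genes of each list (some not reported here) with ATF4, ASNS, CA9 and SLC2A1; SARS and the other genes named were added after their values were seen. Listed symbols that matched no row were not analysed here. Reference sequences were not used here, so no promoter motif is reported.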

Additional observations from a re-analysis of the deposited data

How the results depend on the processing

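The 4 rises were called in every fit, including intron reads alone, and the 9 mitochondrial falls in every fit except intron reads alone, where 4 were called. When libraries were scaled by their size alone, the median over all genes shifted by -0.07, the cytosolic median was -0.20 and the mitochondrial median -0.32; 3076 genes were then called higher and 4862 lower, and HARS2 (-0.011) and YARS (-0.062) changed sign without a call. TARSL2 (0.027) and QARS (0.015) changed sign in exon reads and RARS2 (0.027) in intron reads, all without a call; the cause was not tested. Leaving out each library in turn gave 4 synthetase genes higher, 20 to 22 lower, and medians of -0.17 to -0.13 (cytosolic) and -0.27 to -0.20 (mitochondrial), the last without hypoxia replicate 1. Without a library, TARSL2 ranged from -0.089 to 0.036, QARS from -0.045 to 0.020 and YARS from -0.023 to 0.019, again without a call. DESeq2 called the same 4 and 21 synthetase genes, with 3515 genes higher and 3478 lower in all. The replicate numbers did not pair the libraries (correlations of same-numbered deviations of -0.09, -0.01 and -0.03, and 0 hypoxia libraries correlated best with their own number). With the replicate block, 4 synthetase genes were higher and 22 lower, IARS being the addition (-0.09, adjusted p = 0.0300, edgeR), and 3769 genes were higher and 3793 lower in all. The planned search of promoter motifs was not run. PARS2, with 149 to 184 reads per library, sets the weakest precision among the members.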
